A study of Bos taurus with 20 samples.

Results

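Serpins are a superfamily of proteins that share a common fold, and most of them inhibit serine proteases. The inhibitor offers an exposed reactive loop as bait, and once the protease has cut it, the loop folds into the body of the serpin and traps the enzyme in a covalent complex. In the ovarian follicle the family, some members of which have turned into hormone carriers or chaperones, is best known for the inhibitors of plasminogen activation and plasmin, which act during the matrix remodelling that precedes ovulation.

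The family was taken here as every non-control probe of the array whose gene name starts with SERPIN, which gave 72 of 61325 probes and 31 of 22563 genes or transcripts. Expression was measured on a customized 1-colour Agilent bovine array, with labelled RNA from bovine ovarian follicles of 3 to 6 mm. There were 4 arrays for each of theca cells (TH, scraped from the follicular wall), granulosa cells (GC), cumulus cells (CC, the cells around the oocyte) and immature oocytes, and 4 arrays of CC whose cumulus-oocyte complexes had been cultured for 4 h (in vitro maturation, IVM). All tissue came from ovaries of slaughtered animals, and the labels name no agent or genotype. The IVM arrays differ from the CC arrays by the culture, and what its medium held is not given here. The sources used here do not say how many animals stand behind an array. Serpin transcripts that the array names otherwise (SERPINB6, SERPINA3-7, SERPINA3-8, AGT and a clade B-like transcript) fall outside the rule and are not analysed here.

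A level below is log2 of the processed signal minus the 75th percentile of its array, so that 0 marks a probe brighter than 75% of the array. Differences are log2 differences of these levels, given ± their standard error and tested with limma over all genes, and a gene is said to have risen or fallen where its adjusted p was under 0.05. A gene was counted as above background on an array where at least 1 of its probes was marked so by the scanner software, and as detected in a group where this held on 3 or 4 of the 4 arrays. A ± after a level is the SD over the 4 arrays. Levels of different genes are not compared, since each comes from its own probes. Because every group is a bulk sample, fewer cells of a type and less RNA per cell cannot be told apart.

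Of the 6 theca markers, all were detected in TH at a summed level of 9.17 to 9.70. In GC, CC and CC after IVM 4 were detected, at 4.90 to 6.84, 4.66 to 5.03 and 4.50 to 4.89. In the oocytes 3 were, at 0.22 to 0.77. CYP17A1 was above background on no CC, IVM or oocyte array. Of the 4 granulosa markers all were detected in GC, CC and CC after IVM, and 3 were detected in TH at a summed level of 4.18 to 5.06. In the oocytes 2 were, at 1.14 to 1.60 against 8.57 to 8.62 in CC. All 6 oocyte markers were detected in the oocytes at a summed level of 7.96 to 8.37, against -0.83 to 1.59 in CC, where all 6 were detected as well. Lists for other cells of the follicle wall were also higher in TH than in GC or CC. The summed level of 5 endothelial markers was 1.89 to 2.97 in TH and at most 0.19 in GC, that of 8 leukocyte markers was 2.25 to 2.98 in TH and at most 1.13 in GC, and that of 6 pericyte and smooth muscle markers was 7.77 to 7.95 in TH and at most 4.65 in GC. Of the 5 endothelial markers, CC had 3 detected and TH, GC and the oocytes had 4 each (summed level of 1.57 to 2.16 in the oocytes), and of the 8 leukocyte markers TH had 7, GC and the oocytes 6 and CC 5. The defining endothelial marker CDH5 was above background on 1 TH array and on none of the other groups, and of the 5 groups only TH showed the leukocyte marker PTPRC above background. The part of such cells in any serpin level was not tested. Oocyte replicate 2 stood apart from the other oocyte arrays, with 49.3% of probes above background against 62.6% to 68.8%. Replicates 1 and 2 of the 4 cell types lay on slide 1 and replicates 3 and 4 on slide 2, whereas the 4 IVM arrays filled slide 3, so that IVM and slide cannot be told apart.

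A few probe sequences show what was measured, and the reason for each is given beside it. Each is 60 bases long and printed 5′ to 3′ as the array files list it, except for the shortened SERPINE2 entry. SERPINA6, the corticosteroid-binding globulin, has a probe that was above background on all 4 oocyte arrays and on 1 of the 16 others.
SERPINA6, probe 2: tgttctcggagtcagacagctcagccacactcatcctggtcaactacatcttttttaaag
SERPINA10, the protein Z-dependent inhibitor of coagulation factor Xa, has a pair of probes that were both above background on 3 oocyte arrays and on no other array, and 1 of them is shown.
SERPINA10, probe 2: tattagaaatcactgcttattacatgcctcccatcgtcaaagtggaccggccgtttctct
SERPINA1, alpha-1-antitrypsin, has a pair of probes of which only probe 1 was above background, and only after IVM.
SERPINA1, probe 1: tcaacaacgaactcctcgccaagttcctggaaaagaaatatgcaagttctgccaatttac
SERPINA1, probe 2: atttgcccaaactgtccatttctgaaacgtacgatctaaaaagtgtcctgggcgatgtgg
SERPINA3-1 and SERPINA3-6 are cattle paralogs related to alpha-1-antichymotrypsin. A pair of their probes shares a run of 41 bases, shown in capitals, so signal of either gene can reach the other's probe.
SERPINA3-1, probe 1: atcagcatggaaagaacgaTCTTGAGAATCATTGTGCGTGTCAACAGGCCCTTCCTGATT
SERPINA3-6, probe 2: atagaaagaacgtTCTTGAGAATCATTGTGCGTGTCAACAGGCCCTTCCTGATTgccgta
For SERPINE2, protease nexin-1, a probe begins with the end of the coding sequence, of which the 33 bases up to the stop codon (capitals) are shown, as its level set GC and CC apart from TH and the oocytes.
SERPINE2, probe 1: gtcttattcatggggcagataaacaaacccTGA

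Of the 31 genes, 19 were detected in at least 1 group and 10 in all 5 groups, among them SERPINA6, SERPINB4, SERPINB5, SERPINE2, SERPINF1, SERPINF2, SERPING1, SERPINH1 and SERPINI1. The number detected was 16 in TH, 15 in GC, 15 in CC, 16 in CC after IVM and 12 in the oocytes. In the oocytes this was 38.7% of the family beside 66.8% of all genes of the array, and in TH it was 51.6% beside 63.5%. The 12 genes detected in no group were SERPINA3-6, SERPINA4 (kallistatin), SERPINA7 (thyroxine-binding globulin), SERPINA12 (vaspin), SERPINB1, SERPINB7, SERPINB10, SERPINB12, SERPINB13, SERPINC1 (antithrombin), SERPIND1 (heparin cofactor II) and SERPINI2. Of these, 7 were above background on no array, with levels between -7.59 and -5.91 in TH, between -9.11 and -6.22 in the oocytes and between -7.40 and -5.74 in CC after IVM, so their differences are those of the array floor.

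**Figure D1:**
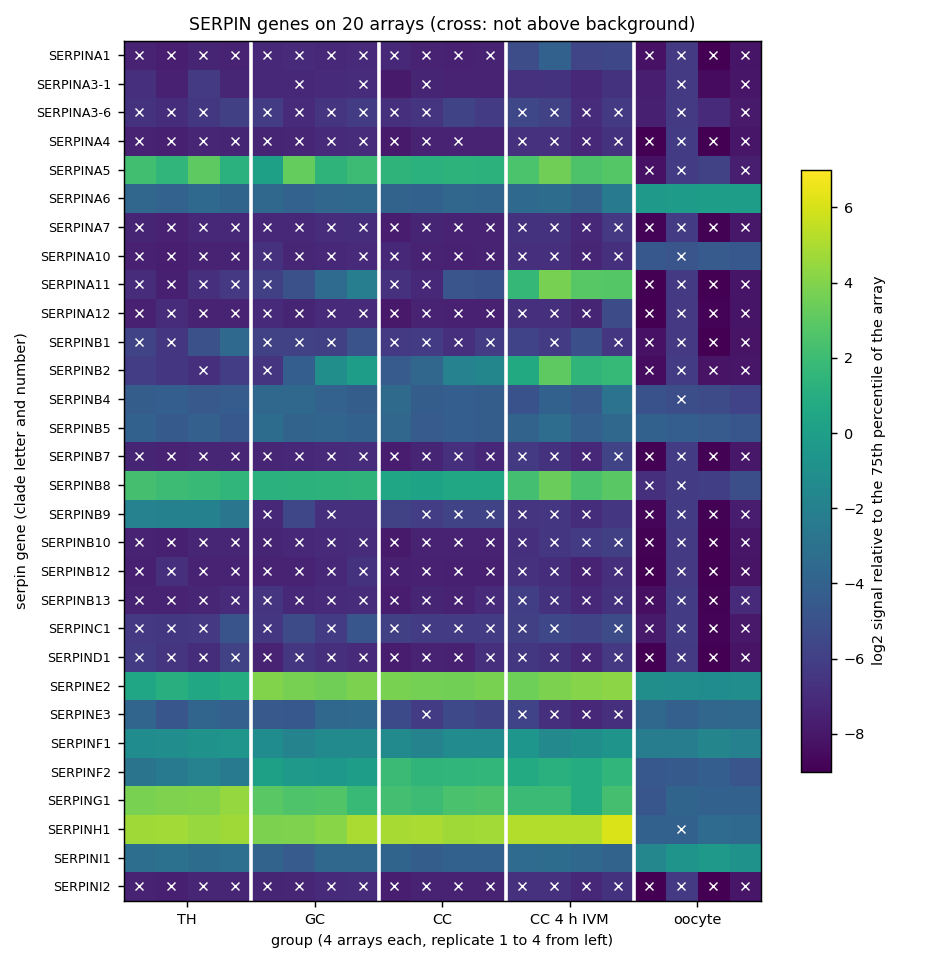
Level of 30 serpin genes (rows, by clade) on each of the 20 arrays (columns, in 5 groups of 4), as log2 signal relative to the 75th percentile of the array (colour). A white cross marks an array on which no probe of the gene was above background. SERPINH1, SERPING1, SERPINB8 and SERPINA5 are bright in the somatic groups and dark in the oocytes, and SERPINA11 and SERPINB2 are brightest after IVM.

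In the F-test over TH, GC, CC and oocytes 19 of the 31 genes (61.3%) differed, beside 71.3% of all genes. In the oocytes 16 members were lower than the mean of TH, GC and CC, beside 38.3% of all genes that were lower, and 4 members were higher, beside 32.9%. Of the 16 lower members 12 were detected in a group, and SERPIND1 was above background on no array. The 4 higher members were SERPINA6, SERPINA10, SERPINE3 and SERPINI1, all detected. The median difference over the 31 members was -0.74, against -0.52 over all genes. The 75th percentile of the oocyte arrays was 1521 to 2891 intensity units, against 368 to 1101 on the TH, GC and CC arrays. The part of this scaling in the oocyte falls was not tested. Where no oocyte array was above background, the size of a fall is known only down to the array floor. Between the follicle wall and the granulosa lineage, 6 members were higher in TH than in the mean of GC and CC, beside 14.2% of all genes, and 5 were lower, beside 18.5%. Between GC and CC only SERPINE3 was higher in GC (4.6% of all genes) and only SERPINF2 was lower (5.27%). After IVM 14 members were higher than in CC, beside 30.2% of all genes, and 2 were lower, beside 15.5%. Of those 14, however, 6 were above background on none of the 8 arrays, and 7 were detected in CC or after IVM. The median difference after IVM was 0.61 over the members and 0.37 over all genes, and the 75th percentile of the IVM arrays was 284 to 396 intensity units against 536 to 657 on the CC arrays. The part of this scaling in the rises was not tested. With quantile normalization, which held the all-gene median at 0.014, 6 members were higher after IVM, among them SERPINA1, SERPINA5, SERPINA11, SERPINB2 and SERPINB8.

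**Figure D2:**
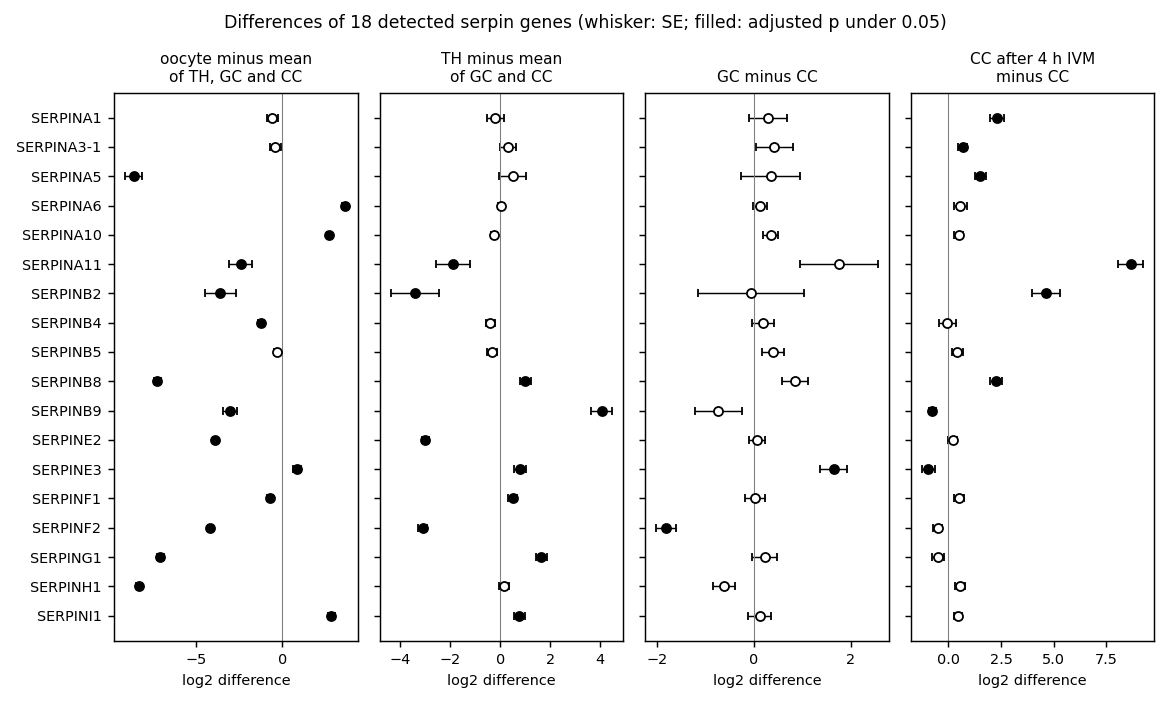
Log2 differences of 18 detected serpin genes in 4 comparisons (x axis, a panel each) with their standard errors (whiskers). Filled points have a limma adjusted p under 0.05. Most filled points of the oocyte comparison lie left of 0, and the largest after IVM is SERPINA11 at 8.66.

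Most members had 2 probes (26 genes) and the rest had 4. In 9 genes the probes differed in detection in at least 1 group, and in 8 their means differed by more than 2 log2 units in at least 1 group, the widest being SERPINA6 at 7.63. How the probes differed is described with each gene, apart from SERPINC1, which was detected in no group.

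Clade A holds many of the secreted serpins of blood plasma. SERPINA5, the protein C inhibitor, which also inhibits urokinase and acrosin, was at 2.15, 1.52, 3.05 and 1.21 on the TH arrays. Its GC levels were 0.10, 3.20, 1.38 and 1.96, and its CC levels were 1.43, 1.23, 1.32 and 1.28. After IVM they were 2.48, 3.56, 2.55 and 2.76. The oocyte arrays lay at -8.20, -6.22, -5.86 and -7.63, and of these only replicate 3 was above background. All somatic arrays were thus above all oocyte arrays, TH and GC overlapped widely, and every IVM array was above every CC array. The oocyte differed from the somatic mean by -8.63 ± 0.50 (limma, adjusted p = 2.5e-10), with -8.81 within slide 1 and -8.45 within slide 2. The rise after IVM was 1.52 ± 0.25 (limma, adjusted p = 0.0015). The gene lies at chr21:59782814-59795808 (UMD 3.1), and its 4 probes carry 2 sequences that share a run of 53 bases.

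SERPINA11, a member with no well-known target, showed the largest serpin difference after IVM. In CC it was at -6.72, -7.14, -4.80 and -4.97, above background on 2 of the 4 arrays. After IVM it was at 1.67, 3.69, 2.85 and 2.80, above background on all of them. The lowest IVM array (1.67) was far above the highest CC array (-4.80), and the difference was 8.66 ± 0.59 (limma, adjusted p = 1e-05). In GC the levels were -5.97, -5.06, -3.42 and -2.14, above background on 3 arrays, and no TH or oocyte array was above background. Against the scanner floor, the IVM level was at least 263-fold higher than in TH and at least 403-fold higher than in the oocytes, groups on other slides that were not tested against it. TH fell below the mean of GC and CC by 1.89 ± 0.69 (limma, adjusted p = 0.049), with -1.05 within slide 1 and -2.72 within slide 2. Against the floor the GC mean, which includes an array not above background, was 2.2-fold higher than TH and 3.37-fold higher than the oocytes. The TH call was lost within slide 1 (adjusted p = 0.46) and when any of 11 of the 16 arrays was left out, among them each TH array (differences of -2.08 to -1.55). The oocyte fell below the somatic mean by 2.42 ± 0.65 (limma, adjusted p = 0.0037), and within slide 1 this too was lost (adjusted p = 0.26). Its probes are nearly the same, with 57 of 60 bases shared, so they are no independent check of each other. Both were above background on all 4 IVM arrays. In GC probe 1 was at -4.03 ± 1.44 and above background on 2 arrays, and probe 2 was at -4.26 ± 2.05 on 3, so that the detection in GC rests on probe 2.

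SERPINA6 carries cortisol and progesterone in blood. Its level was -0.38, -0.22, -0.026 and -0.024 on the oocyte arrays. On the TH arrays it was -3.95 to -3.50, on the GC arrays -3.94 to -3.58 and on the CC arrays -4.03 to -3.72. All 4 oocyte arrays were above all 12 arrays of the other cell types, and the difference was 3.62 ± 0.12 (limma, adjusted p = 4.9e-13), with 3.57 within slide 1 and 3.66 within slide 2. This value averages probes that behaved differently. Probe 2, printed above, was at -1.28 ± 0.10 in the oocytes (SD, n = 4) and above background on no TH, GC or CC array, which makes it at least 13.5-fold higher than in GC and at least 17.5-fold higher than in CC. Probe 1 was detected everywhere, at 0.96 ± 0.28 in the oocytes, and its TH, GC and CC means were 0.018 ± 0.32, -0.16 ± 0.28 and -0.034 ± 0.36. With the brightest probe alone the difference was 1.02 (adjusted p = 0.00014), so the direction held and the size depended on the probe.

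SERPINA10 was above background on 3 of 4 oocyte arrays and on no other array. Its oocyte levels were -4.61, -4.79, -4.43 and -4.62, and its CC levels were -7.14, -7.44, -7.55 and -7.50. TH lay at -7.63 to -7.38 and GC at -7.29 to -6.73, so the oocyte arrays stood above all others. The difference was 2.70 ± 0.13 (limma, adjusted p = 2.1e-11), with 2.59 within slide 1 and 2.82 within slide 2. Against the scanner floor the mean of the 4 oocyte arrays was 1.59-fold higher than TH, 1.34-fold higher than GC and 1.74-fold higher than CC. That mean includes the array not above background, so these are no strict lower bounds. For probe 2 alone, printed above, the values were 1.02-fold over TH and 1.11-fold over CC. Its oocyte mean of -5.26 lay below the GC floor of -5.03, so it gave no value over GC. With normexp background correction the sign turned (-0.31, adjusted p = 0.1).

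SERPINA1, the plasma inhibitor of neutrophil elastase, was above background on all 4 IVM arrays and on none of the other 16. Its levels after IVM were -5.21, -4.05, -5.64 and -5.56, against -7.18, -7.45, -7.51 and -7.48 in CC. The groups did not overlap and the difference was 2.29 ± 0.34 (limma, adjusted p = 0.00071), which against the CC floor is at least 1.23-fold. Probe 1 alone went from -7.23 ± 0.51 to -3.69 ± 0.66, at least 3.29-fold, while probe 2 was above background on no array. With the brightest probe alone the difference was 3.53 (adjusted p = 0.00029).

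SERPINA3-1 was detected through 1 of its 4 probes. As a median over the probes its level was -7.83, -7.34, -7.45 and -7.40 in CC and -6.74, -6.69, -7.23 and -6.65 after IVM, without overlap. In TH it was -6.83, -7.51, -6.30 and -7.29, in GC -7.13, -7.19, -7.04 and -6.98 and in the oocytes -7.64, -6.25, -8.52 and -8.01, and the oocyte arrays spanned those of the other cell types. The detected probe was at -3.90 ± 0.67 in TH, -4.61 ± 0.99 in GC, -4.57 ± 0.37 in CC, -3.73 ± 0.63 after IVM and -6.14 ± 0.31 in the oocytes. The gene value, a median over probes that are mostly at the floor, rose after IVM by 0.68 ± 0.21 (limma, adjusted p = 0.027), and with the brightest probe alone the difference was 0.85 with an adjusted p of 0.082. For the oocyte against the somatic mean the brightest probe gave -1.78 (adjusted p = 0.00032), whereas the gene value gave -0.41 (adjusted p = 0.22). The rise after IVM was also lost without CC replicate 1, CC replicate 3 or IVM replicate 4 (0.57 to 0.70), with quantile normalization (0.0054), in the fit of all 20 arrays (adjusted p = 0.14) and with the replicate block (adjusted p = 0.065). A further probe of SERPINA3-1, which shares 57 of its 60 bases with a SERPINA3-8 transcript, was above background on no array, and neither was the probe printed above.

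Of the clade A genes, 8 lie within 334 kb of chromosome 21 (chr21:59496451-59830426, UMD 3.1), in the order SERPINA10, SERPINA6, SERPINA1, SERPINA11, SERPINA12, SERPINA4, SERPINA5 and SERPINA3-1. SERPINA10 and SERPINA6, at its left end, were higher in the oocytes, SERPINA1 and SERPINA11 beside them rose after IVM and were above background on no oocyte array, and SERPINA12 and SERPINA4 were detected in no group. SERPINA5 was detected in all somatic groups, including CC after IVM.

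**Figure D3:**
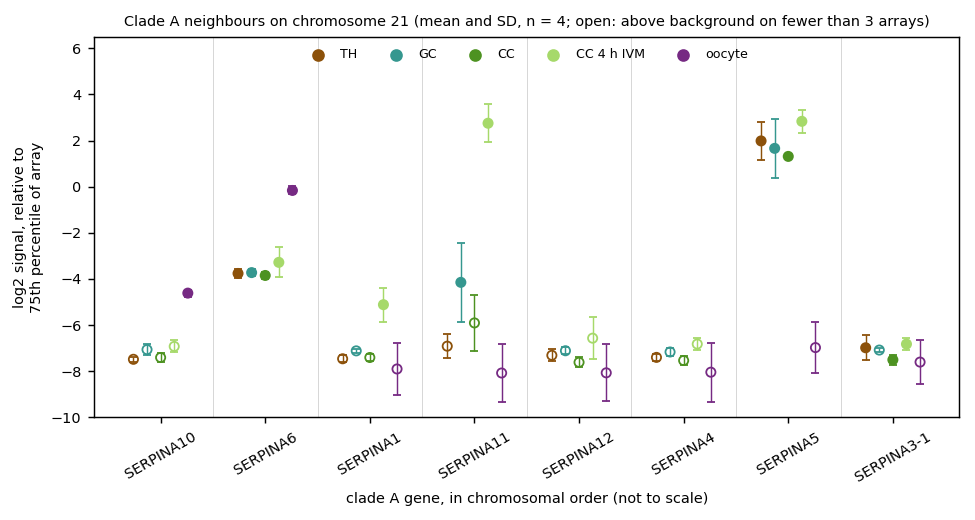
Mean level with SD (n = 4) of the 8 clade A genes that lie side by side on chromosome 21, in their order from left to right (x axis, not to scale), as log2 signal relative to the 75th percentile of the array (y axis), by group (colour). Open points were above background on fewer than 3 arrays. The oocyte is the highest group for SERPINA10 and SERPINA6 and the lowest for SERPINA5, and SERPINA11 reaches 2.75 ± 0.83 after IVM.

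Clade B serpins mostly stay inside the cell. SERPINB8, which can inhibit furin-type proteases, was at 2.28, 1.94, 1.82 and 1.53 in TH. Its GC levels were 1.21, 1.27, 1.35 and 1.38, and its CC levels were 0.44, 0.26, 0.60 and 0.54. After IVM they were 2.23, 3.37, 2.38 and 2.90, and in the oocytes -6.79, -6.18, -6.05 and -5.15, above background on 2 of 4 arrays. TH, GC and CC followed each other without overlap, and the oocytes lay far below. The oocyte difference was -7.26 ± 0.22 (limma, adjusted p = 1.3e-13). TH was above the mean of GC and CC by 1.01 ± 0.23 (limma, adjusted p = 0.0029), with 1.32 within slide 1 and 0.70 within slide 2, the latter with an adjusted p of 0.14. The GC and CC levels differed by 0.84, which missed the threshold (adjusted p = 0.061). After IVM the gene rose by 2.26 ± 0.27 (limma, adjusted p = 0.0002), and no IVM array overlapped with CC.

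SERPINB9, the inhibitor of granzyme B, was higher in TH. Its TH levels were -1.93, -1.995, -1.97 and -2.75, all above background. In GC they were -7.18, -5.59, -6.76 and -6.84 and above background on 2 arrays, and in CC they were -5.86, -6.09, -5.75 and -5.73 and above background on 1. Every TH array was above every other array, and TH differed from the mean of GC and CC by 4.06 ± 0.42 (limma, adjusted p = 1.9e-06), with 4.22 within slide 1 and 3.91 within slide 2. No oocyte array was above background, and TH was at least 13.4-fold higher than the oocytes. The leukocyte markers given above were also higher in TH (7 of 8 detected, summed level 2.25 to 2.98) than in CC (5 of 8, -2.18 to -0.060). So were the theca, endothelial and pericyte lists, and the part of any such cells was not tested. In the oocytes 6 of the 8 leukocyte markers were detected, and their summed level of 3.73 to 4.02 was mostly that of CSF1R (3.70, against 1.60 in TH). LCP1 and CD3E were also higher there than in TH. CD14, CD68 and TYROBP were lower, at -6.06, -6.01 and -6.54 against -0.91, -2.16 and -0.39 in TH. After IVM it fell by 0.75 ± 0.19 (limma, adjusted p = 0.012), though it was above background on 2 of those 8 arrays in all. The summed level of the leukocyte markers after IVM was -0.11 to 1.525.

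SERPINB2, plasminogen activator inhibitor 2, is annotated at 2 places on chromosome 24 (chr24:12747969-12765314 and chr24:62591413-62609170, UMD 3.1) with a pair of probes for each. After IVM its level was 0.69, 3.04, 1.50 and 1.74. In CC it was -4.38, -3.72, -1.89 and -1.65, so the groups did not overlap, and it rose by 4.65 ± 0.67 (limma, adjusted p = 0.00066). All 4 probes were detected after IVM, and the difference was 8.27 with the brightest probe alone. In GC the levels were -6.55, -4.20, -1.11 and -0.025. For the transcript at chr24:62591413-62609170 probe 2 went from -3.23 ± 0.32 in CC to 5.04 ± 0.47 after IVM. Its probe 1 went from -5.87 ± 1.17, above background on 1 CC array, to 1.02 ± 0.57. For the other transcript, probe 1 went from -2.24 ± 1.99 to 1.18 ± 1.06 and probe 2 from -2.16 ± 2.35 to 2.13 ± 0.95. The GC and CC arrays of slide 1 were all below those of slide 2. TH (-6.07, -6.48, -6.78 and -6.12) overlapped with GC through GC replicate 1, and the oocytes (-8.49 to -6.16) were above background on no array. CC was at least 7.96-fold higher than the oocytes. The difference of TH from GC and CC was -3.42 ± 0.96 (limma, adjusted p = 0.011), with -1.56 within slide 1 and -5.28 within slide 2, and within slide 1 it did not pass the test (adjusted p = 0.32). The oocyte fell below the somatic mean by 3.62 ± 0.90 (limma, adjusted p = 0.002), with -2.09 within slide 1 and -5.15 within slide 2, and here too slide 1 alone did not pass (adjusted p = 0.069).

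SERPINB4, a squamous cell carcinoma antigen, was lower in the oocytes (-4.99, -5.18, -5.35 and -5.78) than on any TH, GC or CC array, which lay between -4.56 and -3.49. The difference was -1.23 ± 0.18 (limma, adjusted p = 2e-05). The gene value averages its 2 probes, and only probe 2 was above background. Probe 2 was at -2.22 ± 0.28 in TH, -1.83 ± 0.18 in GC, -1.47 ± 0.34 in CC, -1.94 ± 0.89 after IVM and -3.545 ± 0.50 in the oocytes. It shares a run of 32 bases with a probe of the clade B-like transcript, so the source of the signal is uncertain. SERPINB5, maspin, which does not inhibit proteases, passed none of the 5 tests. Its levels were -4.01, -4.46, -4.09 and -4.62 in TH, -3.31, -3.89, -3.81 and -4.03 in GC and -3.70, -4.42, -4.23 and -4.27 in CC. After IVM they were -3.89, -3.28, -4.07 and -3.65, and in the oocytes -4.06, -4.24, -4.43 and -4.74, and all groups overlapped except GC and the oocytes. It too had 1 detected probe, at -1.21 ± 0.57 in TH, -0.61 ± 0.36 in GC, -1.10 ± 0.29 in CC, -0.66 ± 0.56 after IVM and -2.10 ± 0.099 in the oocytes. With this brightest probe alone the oocyte difference was -1.12 (adjusted p = 0.00022).

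**Figure D4:**
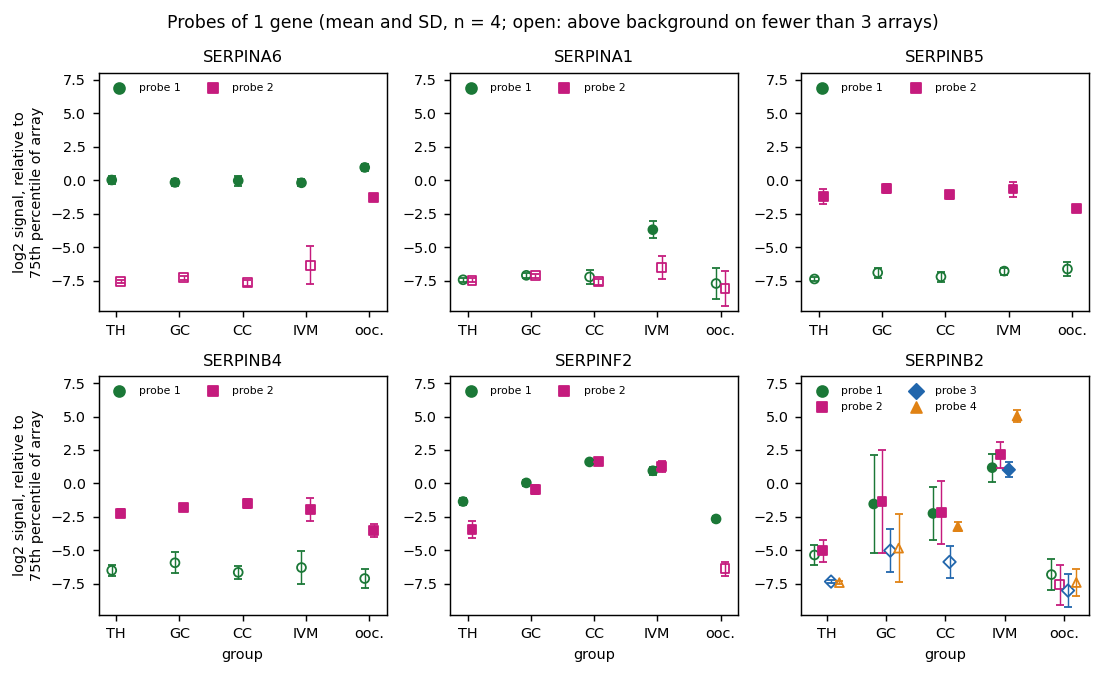
Mean level with SD (n = 4) of each probe of 6 serpin genes by group (x axis, where IVM is CC after 4 h of maturation, ooc. the oocytes), as log2 signal relative to the 75th percentile of the array (y axis). Filled symbols were above background on 3 or 4 arrays. For SERPINA6, SERPINA1, SERPINB5 and SERPINB4 a probe at the floor sits beside a detected one, whereas the SERPINF2 probes meet in CC and part in TH and the oocytes.

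In clade E, SERPINE2, which inhibits thrombin, urokinase and plasmin, was at 3.98, 3.72, 3.51 and 3.84 in GC. In CC it was at 3.78, 3.66, 3.61 and 3.75, and after IVM at 3.46, 3.83, 4.07 and 4.25. TH levels were 0.44, 1.11, 0.51 and 0.91, and oocyte levels -1.12, -1.16, -1.24 and -1.18. GC, CC and IVM arrays overlapped, TH lay below them all, and the oocytes lay below TH. TH differed from the mean of GC and CC by -2.99 ± 0.14 (limma, adjusted p = 6.5e-10), and the oocyte from the somatic mean by -3.91 ± 0.13 (limma, adjusted p = 4.9e-13). The TH difference was -3.01 within slide 1 and -2.97 within slide 2, and that of the oocytes -3.92 within slide 1 and -3.90 within slide 2. GC and CC differed by 0.061 ± 0.16 and CC after IVM from CC by 0.20 ± 0.21, neither past the threshold. Granulosa markers were also detected in TH (3 of 4, summed level 4.18 to 5.06) and in the oocytes (2 of 4, 1.14 to 1.60), and the part of granulosa cells in the TH and oocyte levels of SERPINE2 was not tested.

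SERPINE3, a member of this clade with no well-known target, was detected in TH, GC, CC and the oocytes. It was at -4.51, -4.58, -3.62 and -3.51 in GC against -5.44, -6.14, -5.50 and -5.74 in CC, without overlap, and the difference of 1.65 ± 0.28 (limma, adjusted p = 0.0016) was the only rise of a serpin in GC over CC. Slide by slide it was 1.24 within slide 1 and 2.06 within slide 2, the former with an adjusted p of 0.28. In CC only 1 of its probes was detected, on 3 arrays. Oocyte levels were -3.59, -4.11, -3.69 and -3.67, and TH levels -3.77, -4.73, -3.79 and -4.07, which overlapped with each other and with GC. The oocyte exceeded the somatic mean by 0.85 ± 0.23 (limma, adjusted p = 0.004), and normexp background correction turned this to -0.37 (adjusted p = 0.026). TH was higher than the mean of GC and CC by 0.79 ± 0.25 (limma, adjusted p = 0.022), and this call was lost within either slide and without TH replicate 1 or 3 (0.68 and 0.69). No IVM array was above background. The difference after IVM was -0.94 ± 0.31 (limma, adjusted p = 0.034), it turned to 0.038 with the deposited log2 values and to 0.42 with normexp, and it missed the threshold when any 1 of 6 of the 8 arrays was left out (-0.96 to -0.77).

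**Figure D5:**
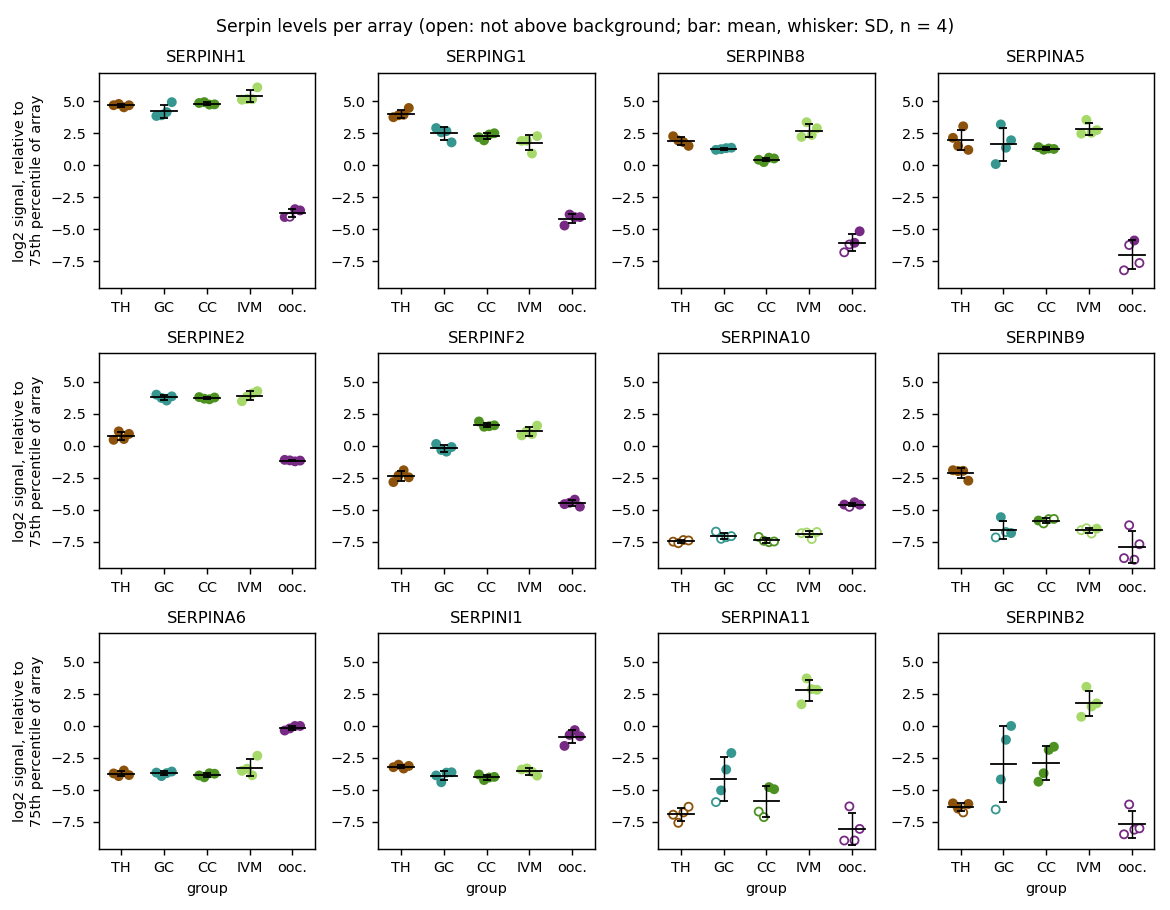
Levels of 12 serpin genes on each array (points) by group (x axis, where IVM is CC after 4 h of maturation, ooc. the oocytes), as log2 signal relative to the 75th percentile of the array (y axis). Bars are means, whiskers SD (n = 4), and open points were not above background. SERPINE2 is level between GC and CC while SERPINF2 steps up from TH to GC to CC, and SERPINA11, SERPINB2, SERPINB8 and SERPINA5 have every IVM point above every CC point.

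SERPINF2, alpha-2-antiplasmin, is the main inhibitor of plasmin in blood, and it was the only member that was lower in GC than in CC. Its CC levels were 1.88, 1.47, 1.51 and 1.58. In GC they were 0.12, -0.34, -0.48 and -0.12, in TH -2.86, -2.34, -1.93 and -2.48, and in the oocytes -4.58, -4.47, -4.23 and -4.77. The 4 cell types did not overlap and stood in the order CC, GC, TH, oocyte. GC differed from CC by -1.81 ± 0.21 (limma, adjusted p = 6.1e-05), 3.51-fold lower in GC, with -1.78 within slide 1 and -1.84 within slide 2, the former with an adjusted p of 0.081. TH differed from the mean of GC and CC by -3.10 ± 0.18 (limma, adjusted p = 4.3e-09), and the oocyte from the somatic mean by -4.18 ± 0.17 (limma, adjusted p = 3.2e-12). The size of the oocyte difference depended on the probe, as the brightest alone gave -2.75. Both probes were at 1.61 in CC, and in the oocytes probe 1 was at -2.66 ± 0.21 and probe 2 at -6.37 ± 0.52, above background on 1 array. After IVM the levels were 0.79, 1.14, 0.90 and 1.56, and the difference of -0.51 ± 0.22 missed the threshold (adjusted p = 0.081). SERPINF1, the pigment epithelium-derived factor, which lacks inhibitory activity and restrains vessel growth, lies beside SERPINF2 on chromosome 19 (chr19:23422880-23430667 and chr19:23403657-23411269, UMD 3.1). Its levels were -1.22, -1.14, -0.79 and -0.68 in TH, -1.22, -1.86, -1.37 and -1.34 in GC and -1.43, -1.86, -1.31 and -1.29 in CC. In the oocytes they were -2.19, -2.20, -1.72 and -1.94, and after IVM -0.58, -1.48, -1.03 and -0.73. It was higher in TH by 0.50 ± 0.17 (limma, adjusted p = 0.035) and lower in the oocytes by 0.72 ± 0.16 (limma, adjusted p = 0.00091), and the TH call was lost within either slide and without CC replicate 2, GC replicate 2, TH replicate 3 or TH replicate 4 (0.41 to 0.45). The oocyte difference was mostly that of probe 2, which was at -2.32 ± 0.25 in the oocytes and -1.08 ± 0.34 in CC, whereas probe 1 was at -1.70 ± 0.21 and -1.86 ± 0.24. With the deposited log2 values it was -0.17 and did not pass (adjusted p = 0.3).

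SERPING1, the C1 inhibitor, controls the complement proteases C1r and C1s and the contact system. Its TH levels were 3.77, 3.92, 3.96 and 4.49. In GC they were 2.92, 2.58, 2.68 and 1.80, and in CC 2.20, 1.96, 2.41 and 2.51. The oocytes were at -4.70, -3.84, -4.04 and -4.04, and CC after IVM at 1.92, 1.93, 0.93 and 2.29. All TH arrays were above all GC and CC arrays, which overlapped, and the oocytes were lowest. The TH difference was 1.65 ± 0.22 (limma, adjusted p = 2.9e-05), with 1.43 within slide 1 and 1.87 within slide 2. The oocyte difference was -7.09 ± 0.21 (limma, adjusted p = 1.1e-13). The endothelial, leukocyte and pericyte lists above were also higher in TH than in GC or CC, and their part in the level of SERPING1 was not tested. Their summed levels were -2.55 to -1.96, -2.18 to -0.060 and 1.65 to 2.27 in CC, and 1.57 to 2.16, 3.73 to 4.02 and 3.135 to 3.77 in the oocytes. The oocyte sums were mostly those of TEK (1.33), CSF1R (3.70) and CNN1 (3.40). CDH5, PTPRC and RGS5 of the same lists were above background on no oocyte array.

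SERPINH1, also named HSP47, is a chaperone of the endoplasmic reticulum that helps procollagen chains to fold and inhibits no protease. Its levels were 4.70, 4.80, 4.54 and 4.70 in TH, 3.86, 3.92, 4.16 and 4.94 in GC and 4.88, 4.95, 4.75 and 4.77 in CC. After IVM they were 5.13, 5.18, 5.17 and 6.10, and in the oocytes -4.03, -4.01, -3.42 and -3.52. The oocytes stood far below all somatic arrays, with a difference of -8.32 ± 0.18 (limma, adjusted p = 5.4e-15), which was -8.54 within slide 1 and -8.11 within slide 2. Among the somatic cells the differences were small, at 0.16 ± 0.19 for TH against GC and CC and -0.61 ± 0.22 for GC against CC, and neither passed the test. The 13 collagen chains examined, clients of this chaperone, did differ there. In TH 11 of 13 were higher than in the mean of GC and CC, beside 14.2% of all genes, and none was lower, beside 18.5%, with a median difference of 3.63 against -0.12 over all genes, led by COL1A2 (6.68), COL3A1 (6.61) and COL6A3 (5.38), and COL1A1 was at 4.29. In the oocytes 12 of 13 were lower, beside 38.3% of all genes. COL1A1 differed by -9.69 and was above background on 2 oocyte arrays, and COL3A1, on none, was at least 6.3-fold higher in CC than in the oocytes. The exception was COL2A1, which was above background on all oocyte arrays and on no TH, GC or CC array, and its oocyte level exceeded CC by at least 75.6-fold.

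SERPINI1, neuroserpin, is an inhibitor of tissue plasminogen activator. Its oocyte levels were -1.58, -0.73, -0.35 and -0.83, above all arrays of TH (-3.35 to -3.05), GC (-4.42 to -3.64) and CC (-4.25 to -3.81). The difference was 2.84 ± 0.20 (limma, adjusted p = 2e-09), a 7.17-fold change, with 2.62 within slide 1 and 3.06 within slide 2. TH was above the mean of GC and CC by 0.77 ± 0.21 (limma, adjusted p = 0.0089), without overlap, but within neither slide did this pass the test (adjusted p = 0.12 and 0.1), nor did it with the deposited log2 values (0.40, adjusted p = 0.097) or normexp (0.24, adjusted p = 0.33). Its neighbour SERPINI2 on chromosome 1 was above background on no array.

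The proteases and partners of these inhibitors were read from lists of their known roles. Their counts stand beside shares of all genes of 38.3% lower and 32.9% higher in the oocytes, 14.2% higher and 18.5% lower in TH, 4.6% higher and 5.27% lower in GC than in CC, and 30.2% higher and 15.5% lower after IVM. Of 25 target proteases on the array 15 were lower in the oocytes and 4 higher, with a median difference of -1.11 against -0.52 over all genes, and 1 of these 19 was above background on no array of the 4 cell types. PLAT, the tissue plasminogen activator, was lower, with a difference of -3.83 (adjusted p = 1.8e-06), as was PLAU, urokinase, at -3.68 (adjusted p = 2.2e-09), and C1S, CTSS and HTRA1 were above background on every somatic array and on no oocyte array. In CC they were at least 6.8-fold (C1S), 11-fold (CTSS) and 74.9-fold (HTRA1) higher than in the oocytes. PLG, plasminogen itself, was above background on all 4 oocyte arrays, on 2 TH arrays and 1 CC array and on no GC array, and the oocytes exceeded GC by at least 33.6-fold (adjusted p of the oocyte difference = 2.2e-11). In TH 7 of the 25 were higher and 3 lower, led by MASP1 (6.87), C1S (5.52) and CTSS (4.02). PLAT (0.96, adjusted p = 0.16), PLAU (0.23, adjusted p = 0.61) and PLG (0.35, adjusted p = 0.54) did not pass the limma test there. Between GC and CC 3 were higher and 3 lower, with C1S at 2.95, thrombin (F2) at -2.67, KLK1 at -1.90 and PLAU at -1.70 (adjusted p = 0.0025), while PLAT (0.47, adjusted p = 0.67) and PLG (0.0087, adjusted p = 0.99) did not pass. After IVM 10 of 25 were higher and 1 lower, 2 of these 11 above background on no CC or IVM array, led by ST14 (7.73), F3 (3.80) and PLAT (2.35, adjusted p = 0.0054), whereas PLAU was at 0.023 (adjusted p = 0.95) and PLG at 0.19 (adjusted p = 0.74). PLAT and its inhibitor SERPINB2 were both higher in CC after IVM, with differences of 2.35 and 4.65.

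Of the 12 cofactors and receptors, 6 were lower and 5 higher in the oocytes. LRP2 was above background on the oocyte arrays alone, at least 109-fold higher there than in GC. Thrombomodulin (THBD) was above background on no oocyte or CC array, and it was at least 135-fold higher in TH than in the oocytes. F2R, detected everywhere, differed by -4.07. LRP1, the receptor that clears protease-serpin complexes, was lower there (-1.43, adjusted p = 0.00046), and VTN, vitronectin, was above background on 1 of 20 arrays and passed none of the comparisons (differences of -0.80 in the oocytes, -0.44 in TH, 0.093 in GC against CC and 0.17 after IVM, adjusted p from 0.073 to 0.93). In TH 4 were higher and 1 lower, with THBD at 7.10, PROCR at 5.08, VLDLR at -1.37 and LRP1 at 1.11. VLDLR was the only one that passed the test between GC and CC (-1.62, adjusted p = 0.00053), with LRP1 at -0.91 (adjusted p = 0.15). After IVM 6 were higher and 3 lower, 1 of these 9 above background on no CC or IVM array. PLAUR differed by 4.91 and LRP1 by -1.40, and THBD and F2RL1, above background on all IVM arrays and on no CC array, were at least 12.3-fold and 6.04-fold higher. Of 19 protease inhibitors of other families, 12 were lower and 2 higher in the oocytes, 1 of these 14 above background on no array of the 4 cell types. TIMP1 differed by -7.67 and TIMP2 by -5.52, and A2M, which no oocyte array showed above background, was higher in CC by at least 8.78-fold. In TH 8 were higher and 1 lower, led by TFPI2 (6.59), A2M (4.91) and TIMP4 (4.02). GC differed from CC in WFDC2 (above background on no GC array, at least 1.41-fold higher in CC), TFPI2 (1.67) and TIMP2 (1.56). After IVM 9 of the 19 were higher and none lower, 2 of the 9 above background on no CC or IVM array, led by TIMP2 (3.29), TFPI2 (2.98) and TIMP1 (2.02). Among the collagen chains 3 were higher and 1 lower in GC than in CC (COL1A2 5.72, COL3A1 4.18, COL12A1 2.46), with COL1A1 at 0.45 (adjusted p = 0.66), and after IVM 2 were higher and 2 lower (COL18A1 1.19, COL6A2 -0.95, COL6A1 -0.70), with COL1A1 at -1.10 (adjusted p = 0.063).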

How the data were processed

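RNA (200 ng per array) was hybridized in 1 colour to a customized 60K Agilent bovine array and scanned. Per the file headers, the authors used Agilent Feature Extraction 10.7.3.1, which gave a background-subtracted, detrended processed intensity per spot and a flag for spots well above background. The deposited table of log2 values equals log2 of the median signal minus the median of the array (each array's median was 0). Transcript positions are those of UMD 3.1 in the array annotation.

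Here each processed intensity was put on the log2 scale and set against the 75th percentile of its array, with spots marked as outliers left out, and the median over the spots of a gene was used, since the study did so. Groups came from the labels, with 4 arrays each. For TH, GC, CC and oocyte 1 limma fit (3.58.1, R 4.3.3) of 16 arrays gave the F-test and 3 contrasts, and a fit of 8 arrays compared CC after IVM with CC. Benjamini-Hochberg adjustment of the p-values ran over all 22563 genes. The code was tested on simulated data. The study calls the samples biological replicates, but the labels do not tie them to animals, so that p-values measure the spread between these samples, whose number limits the precision. Values per array, or their range, were given for members detected in a group, ordered by clade. Companion genes were named where past the threshold and among the 3 largest of their list, with PLAU, PLAT, PLG, VTN, LRP1 and COL1A1 always. The members and lists were chosen with earlier results of these data known. The values of 1 member are not reported here, though it is kept in the counts. Alternatives covered the normalization, background correction, deposited values, probe summary, filter, blocks, slides, array weights, the methods' test and leaving out each array. Of the 31 gene names 28 matched a RefSeq symbol, and no protein or promoter sequence was used here.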

Additional observations from a re-analysis of the deposited data

Results flagged for a closer look

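Within a group of 4 arrays, 4 serpin values had an array far from the others by Dixon's criterion. With 74 pairs of gene and group tested, chance gives about 1 in 20, or 3.7. SERPINB9 in TH replicate 4 stood at -2.75, below the -1.995 to -1.93 of the rest. For SERPINH1, IVM replicate 4 stood at 6.10 and the remaining IVM arrays at 5.13 to 5.18. For SERPINB4, CC replicate 1 stood at -3.49, above the -4.26 to -4.22 of the rest. For SERPINA3-1, IVM replicate 3 stood at -7.23, below the -6.74 to -6.65 of the rest.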

How the results depend on the processing

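Of 53 called results of detected serpin genes, 31 kept their call under every alternative, 22 lost it under at least 1, and 3 results reversed. Of 36 that were not called, 15 passed under at least 1. SERPINA10 in the oocytes turned to -0.31 with normexp, SERPINE3 in the oocytes to -0.37 with normexp, and SERPINE3 after IVM to 0.038 with the deposited values and to 0.42 with normexp. The cause was not tested.

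In the F-test the 19 members became 30 with array weights, the deposited values or normexp, 12 within slide 1 and 29 within slide 2, and 17 to 30 when 1 array was left out (30 without oocyte replicate 2, the array with the fewest probes above background). The 16 members lower in the oocytes became 26 with array weights or the deposited values, 28 with normexp, 25 with the percentile over probes detected on all arrays, 9 within slide 1, 25 within slide 2, and 14 to 26 with 1 array left out (26 without oocyte replicate 2). The 4 higher ones became 2 with normexp and were 4 each time 1 array was left out. In TH the 6 higher members became 3 with normexp, 3 within slide 1, 2 within slide 2 and 4 to 7 with 1 array left out, and the 5 lower became 2 within slide 1 and 4 to 5 with 1 left out.

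Between GC and CC the 1 higher member became 2 with array weights, the deposited values, the filter on dim genes, normexp, the percentile over detected probes or quantile normalization, 0 within slide 1, and 1 to 2 with 1 array left out. The 1 lower became 3 with array weights or the deposited values, 0 within slide 1, and 1 to 3 with 1 left out. After IVM the 14 higher members became 8 in a fit of all 20 arrays, 7 with the filter, 25 with normexp, 6 with quantile normalization, 7 with the replicate block, 23 with the slide as a random block (added after seeing the data), and 7 to 17 with 1 array left out (7 without CC replicate 1, CC replicate 3 or IVM replicate 4). The 2 lower became 1 in the fit of all 20 arrays, with the brightest probe, the filter, the mean over probes or the methods' t-test, 4 with the random block, and 1 to 2 with 1 left out.

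The replicate numbers were not taken to pair the samples. Deviations of same-numbered arrays correlated at -0.13 to 0.34 among the cell types (median 0.069, over 0.1 in 9 of 24 pairs), against a median of -0.023 and 12 of 72 pairs for other numbers, and at -0.14 to -0.0056 between CC and CC after IVM. The replicate block moved the calls after IVM over all genes from 10330 to 7048. For the IVM comparison no fixed slide block or within-slide value was run, since its arrays fill a slide of their own. Genes near the scanner floor have their differences set by background, and 7 members were above it on no array. Scaling moved the median difference of all genes in the oocytes from -0.52 to -0.014 with quantile normalization and to -0.34 with the array median, and background correction by normexp moved it to -1.30.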
